A study of Mus musculus with 2 samples.

Results

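Treg cells of expanded clones were Treg cells that shared a T cell receptor (TCR) clonotype with at least 1 other Treg cell of the same pool. The members were chosen by 2 readouts of each cell, its clonotype and its unique molecular identifiers (UMIs, counts of single captured RNA molecules) for 3 genes. A Treg cell had at least 1 UMI of Foxp3, the transcription factor that defines the lineage, and none of Cd8a or Cd8b1, which encode the CD8 coreceptor, and its clonotype had to be held by 2 or more such cells. The rule gave 98 cells in 46 clones, out of 1705 Treg cells with a clonotype, 2609 Treg cells in all and 9078 cells within the quality limits. They were compared with the 1607 Treg cells whose clonotype was held by no other Treg cell, called single Treg cells here.

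The cells came from 1 pool of TCR-β+ T cells, sorted on the ninth day after inoculation from B16 melanomas and from B16–IL-33 melanomas in C57BL/6J mice. B16 is a mouse melanoma cell line, and B16–IL-33 is the same line made to secrete the cytokine IL-33 in excess. Neither tumor received a treatment, and cells were marked by hashtag antibodies before they were pooled. From this pool 1 library was made for gene expression, another for the hashtags and another for the TCR, and the labels do not say how many mice each tumor stands for or whether the hashtags mark different mice. Cells of 1 pool are not replicates, so no p-value was computed between the 2 groups of cells, and every interval here is a 95% interval for counting error only.

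Treg cells restrain other immune cells through receptors such as CTLA-4, through uptake of IL-2 and through cytokines such as IL-10. Each T cell carries a receptor of an alpha and a beta chain, joined at random from V, D and J gene segments, so cells with the same joined sequence descend in most cases from 1 parent cell. In tissues and tumors, Treg cells pass from a resting state, with genes for recirculation through lymph nodes, to effector states with genes for suppression and, in part, for tissue repair under IL-33.

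Clones were small. Of the 46 clones, 41 had 2 Treg cells, 4 had 3 and 1 had 4, a mean of 2.13 cells. The members were 5.75% of the Treg cells with a clonotype (98 of 1705, interval 4.69 to 6.96%). By the same count within a class, 20.7% of CD8 T cells (193 of 931, 18.2 to 23.5%) and 7.2% of cells with no UMI of Foxp3, Cd8a or Cd8b1 (183 of 2542, 6.22 to 8.27%) were in expanded clones. The largest Treg clone of 4 cells stood beside a largest clone of 13 among CD8 T cells and of 7 among the cells without Foxp3. Requiring 3 cells per clone left 16 members in 5 clones, and calling a clone by the beta-chain sequence alone gave 151 members, 10.4% of the Treg cells with a beta chain.

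The receptor sequences were shown for the clones that the results below turn on. Each is the DNA of the third complementarity-determining region (CDR3), the loop that spans the V to J junction, read from the assembled contigs on the coding strand. Small letters match the germline V or J segment of GENCODE vM21 (GRCm38, the mm10 build of the files), and capitals mark bases outside both matches, which in beta chains include what is left of the D segment. The alpha locus lies on chromosome 14 and the beta locus on chromosome 6. The first 9 lines hold the 5 clones of 3 or 4 cells, numbered by their number of cells and then by their UMIs. Clone 1, the largest, used TRAV4-4-DV10 (chromosome 14, 53683647 to 53684177) and TRBV3 (chromosome 6, 41048290 to 41048828).
Clone 1 alpha, TRAV4-4-DV10 and TRAJ26: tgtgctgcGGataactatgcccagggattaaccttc
Clone 1 beta, TRBV3 and TRBJ2-2: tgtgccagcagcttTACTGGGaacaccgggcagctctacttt
Clone 2 alpha, TRAV13D-2 and TRAJ21: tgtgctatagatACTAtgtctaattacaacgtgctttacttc
Clone 2 beta, TRBV3 and TRBJ2-5: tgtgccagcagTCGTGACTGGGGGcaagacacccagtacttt
Clone 3 alpha, TRAV7-5 and TRAJ24: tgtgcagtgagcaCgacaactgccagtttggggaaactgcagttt
Clone 3 beta, TRBV12-2+TRBV13-2 and TRBJ2-7: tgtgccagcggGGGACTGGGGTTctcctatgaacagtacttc
Clone 4 alpha, TRAV14N-3 and TRAJ31: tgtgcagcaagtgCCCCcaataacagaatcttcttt
Clone 4 beta, TRBV20 and TRBJ2-1: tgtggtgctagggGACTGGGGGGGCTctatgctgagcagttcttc
Clone 5 beta, TRBV19 and TRBJ2-5: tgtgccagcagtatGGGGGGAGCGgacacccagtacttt

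The 5 clones had no CDR3 in common, and clone 5 had no alpha chain in the files. The next lines hold receptors that were shared between clones or that belong to clones that carried a gene's ratio. Clones 32 and 41 had the same beta chain, but clone 41 had no alpha chain, and clones 15 and 33 had the same alpha chain, of which clone 15 had no beta chain. Whether each pair is 1 clone that was split for lack of a chain cannot be told from these sequences. The alpha chains of clones 10 and 32 had no base outside their germline matches, a kind of junction that can arise independently in different cells.
Clones 32 and 41 beta, TRBV16 and TRBJ2-7: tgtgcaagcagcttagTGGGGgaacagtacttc
Clone 32 alpha, TRAV16N and TRAJ38: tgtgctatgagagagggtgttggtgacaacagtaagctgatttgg
Clones 15 and 33 alpha, TRAV7N-6 and TRAJ40: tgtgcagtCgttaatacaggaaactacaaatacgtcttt
Clone 10 alpha, TRAV4D-4 and TRAJ22: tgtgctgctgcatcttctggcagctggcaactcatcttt
Clone 12 alpha, TRAV7-1 and TRAJ34: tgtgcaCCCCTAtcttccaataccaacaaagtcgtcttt
Clone 12 beta, TRBV5 and TRBJ1-3: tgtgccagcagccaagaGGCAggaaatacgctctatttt

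Both chains were found in 30 of the 46 clones (65.2%, interval 49.8 to 78.6%), an alpha chain alone in 11 and a beta chain alone in 5. In single Treg cells both chains were found in 67.1%, an alpha chain alone in 14.8% and a beta chain alone in 18.1%. At least 2 productive beta chains were found in 1 of the 46 clones (2.17%, 0.0550 to 11.5%) and in 8.77% of single Treg cells (7.44 to 10.3%). Whether such droplets held 2 cells was not tested. The 36 beta chains of expanded clones had a median of 9.5 bases outside the germline matches, and the 44 alpha chains a median of 3. Single Treg cells had medians of 9 and 2. CDR3 length ran from 33 to 48 bases in the members' beta chains and from 33 to 54 in their alpha chains, within the 24 to 57 and 27 to 54 bases of single Treg cells.

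The D segment left a visible trace in many of the members' beta chains. The letters ACTGG occur in Trbd2 and not in Trbd1, and the letters ACAGG occur in Trbd1 and not in Trbd2. The segments are printed with those letters in capitals.
Trbd1, chromosome 6, 41533201 to 41533212: gggACAGGgggc
Trbd2, chromosome 6, 41542163 to 41542176: gggACTGGgggggc

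Searched on the coding strand in the capitals alone, ACTGG was found in 10 of the 36 beta chains of expanded clones (27.8%, interval 14.2 to 45.2%) and in 14.3% of 1475 single chains (12.6 to 16.2%). All 10 used a J segment of the second cluster, the only one that Trbd2 can join by deletion, where they were 45.5% of 22 chains (24.4 to 67.8%) against 22.1% of 952 single chains (19.5 to 24.8%). Clones 1, 2, 3 and 4 were among them. ACAGG was found in 4 of the members' chains (11.1%, 3.11 to 26.1%) and in 17.7% of single chains (15.8 to 19.7%). All of these intervals overlapped between the 2 groups, and a match is a description of letters, not proof of the segment used.

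With 36 beta and 44 alpha chains in the members, segment use could be compared only roughly. The most frequent V call of the members' beta chains was TRBV12-2+TRBV13-2, a call that does not separate 2 genes (16.7%, 6 of 36, against 12.6% in single cells). TRBV1 and TRBV3 each made up 13.9% (10.5 and 8.21% in single cells), and TRBV31 11.1% (3.11 to 26.1%, against 4.44%). Of the 44 alpha chains, 4 used TRAV13D-2 (9.09%, interval 2.53 to 21.7%, against 1.94%, 1.31 to 2.78%), those of clones 2, 17, 22 and 29, and each had another J segment. TRAJ31 was in 5 (11.4%, against 6.03%). The intervals of every segment named here overlapped between expanded and single clones.

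The same nucleotide CDR3 often recurred under other clonotype names. Of the members' alpha chains, 43.2% were also held by another clonotype of the contig table (19 of 44, interval 28.3 to 59.0%), against 23.8% in single Treg cells (21.7 to 26.0%). For beta chains the shares were 33.3% (12 of 36, 18.6 to 51.0%) and 15.9% (14.1 to 17.8%), and the intervals of the 2 groups did not overlap for either chain. Single Treg cells that shared an alpha chain with a member belonged to 16 clonotypes, and those that shared a beta chain to 6. A clone with more cells has more chances to lose a chain in one of them, and the part of this in the higher shares was not tested.

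The members were Treg cells by genes that the rule did not use. Il2ra, the alpha chain of the IL-2 receptor, was at 368 CPM (its UMIs scaled to a total of 1000000) in the members (125 UMIs, interval 306 to 438), against 90.9 in cells without Foxp3 or CD8 UMIs and 40.6 in CD8 T cells that had a clonotype. Ikzf2, the transcription factor Helios, was at 1013 CPM against 267 and 162, and Tnfrsf4, the costimulatory receptor OX40, was at 1831 against 474 and 152. Cd4 was at 233 CPM in the members and 45.5 in CD8 T cells. The Treg identity list without Foxp3 summed to 7673 CPM in the members. It summed to 2185 in cells without Foxp3 or CD8 UMIs whose clonotype had no Treg cell. Of that list, Nrp1 was lower in the members, at 23.6 against 42.0, with 8 UMIs. Gpr83, with 1 UMI, was at 2.94 against 2.87. Foxp3 itself rested on 1 UMI in 38 members, on 2 in 23 and on at least 3 in 37. In single Treg cells the same counts were 604, 391 and 612.

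Depth, detected genes and mitochondrial share were similar in both groups. The members held 339646 UMIs, with a median of 3047 per cell (659 to 7893), and single Treg cells held 5889471, with a median of 3315 (542 to 12238). Median detected genes were 1330.5 and 1376, and the median mitochondrial share was 1.61 and 1.76%. The 59 pairs of cells within clones differed in at least 8 of the 16 bases of their cell barcodes. Of the 14035 barcodes of the gene expression library, 6665 were in the TCR library, 11756 in the hashtag library and 6610 in both.

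Across 3809 genes with at least 200 UMIs over both groups, TCR segment genes and the rule's 3 genes left out, the median ratio of CPM in expanded to single Treg cells was 1.03. A ratio of at least 1.5 was found for 127 genes (3.33% of those tested) and a ratio of at most 0.667, the inverse of 1.5, for 244 (6.41%). Of these, 80 and 74 had a counting interval that left out 1. Over all tested genes the interval lay above 1 for 232 (6.09%) and below 1 for 187 (4.91%). Without cells with 2 or more productive beta chains, 100 genes were at least 1.5-fold higher and 195 that much lower. The tested genes had a median of 25 UMIs in the members, so many single ratios were uncertain. In counts simulated at the same totals with counting error alone, 7.51% of unchanged genes were past 1.5-fold in 1 direction or the other. Among the gene lists with at least 3 tested genes, the list of resting cells had the lowest median ratio, 0.738, and the list of cytotoxic genes and chemokine ligands the highest, 1.26. The lists and the share measures were chosen with earlier results of these data known, and the clonotypes did not use the expression values. A hashtag UMI was found in 13.3% of the members and 13% of single Treg cells, so the tumor of most cells was unknown. The 2 groups may differ in their mix of tumors, which cannot be told apart here from a difference by clone size.

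**Figure D1:**
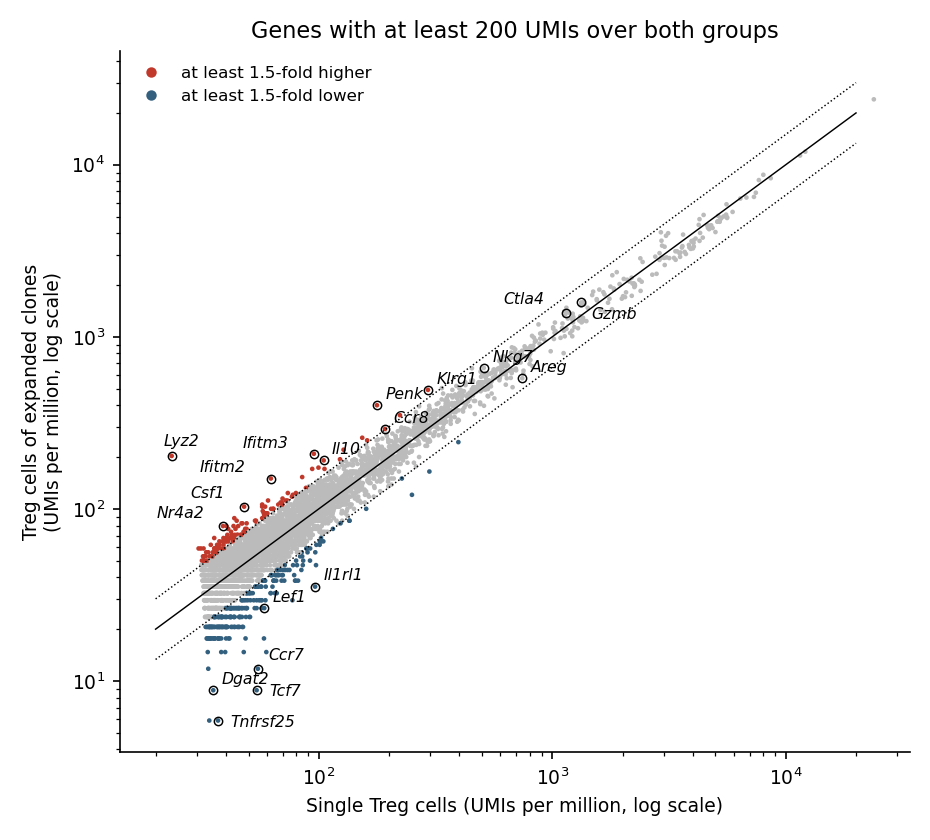
Each point is 1 gene with at least 200 UMIs over both groups. The horizontal axis is its level in 1607 single Treg cells and the vertical axis its level in 98 Treg cells of expanded clones, both in CPM on log scales, with the solid line at equal levels and dotted lines at a 1.5-fold difference. Tcf7, Ccr7, Tnfrsf25 and Dgat2 lie far below the line with 2 to 4 UMIs each in the members, whereas Lyz2, Penk, Ifitm2 and Ifitm3 lie above it.

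Genes of resting and recirculating T cells had ratios below 1 in expanded clones. Tcf7, which encodes the transcription factor TCF-1 of naive and memory T cells, had 3 UMIs in the 98 members (8.83 CPM) and 319 in single Treg cells (54.2 CPM). The 3 UMIs lay in 1 cell each of clones 5, 13 and 33, and the other 43 clones had none. The ratio was 0.163, with an interval of 0.0335 to 0.481. Ccr7, the chemokine receptor that leads T cells into lymph nodes, had 4 UMIs against 323, a ratio of 0.215 (0.0582 to 0.555). The cell of clone 13 that had a Tcf7 UMI held 3 of the 4 Ccr7 UMIs, and without that clone the ratio was 0.0552. Lef1, a partner of TCF-1, had 9 UMIs in 7 clones against 344, a ratio of 0.454 (0.206 to 0.871).

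Of the 9 genes of the resting list that had 200 UMIs, 4 were at least 1.5-fold lower, 0 were that much higher, and all 9 had ratios below 1, with a median of 0.738 beside 1.03 over all genes. The list's median stayed between 0.384 and 0.884 over 15 settings. Besides Tcf7, Ccr7 and Lef1, the gene past 1.5-fold was Ly6c1, at 0.564 (0.241 to 1.13). Il7r, the receptor for the survival cytokine IL-7, was at 0.744 (0.575 to 0.949) and Klf2, which maintains genes for exit from tissues, at 0.833 (0.713 to 0.969). Klf2 was uneven, since 36 of its 179 UMIs lay in the 2 cells of clone 41, with 16 and 20, and without that clone the ratio was 0.675. Igfbp4, which fell below the UMI minimum, had 0 UMIs in the members and 138 in single Treg cells, at least 2.65-fold lower when 3 UMIs are allowed for a count of 0.

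A UMI of Tcf7 or Ccr7 was found in 4.08% (1.12 to 10.1%) of the members (4 of 98) and in 17.8% (16 to 19.8%) of single Treg cells (286 of 1607). At an equal depth of 1500 UMIs per cell, which left 88 members and 1488 single Treg cells, the shares were 2.12% (0.276 to 7.97%) and 10.9% (9.35 to 12.6%). In CD8 T cells, which keep these genes in their naive state, the share was 40.6%. The intervals of the 2 Treg groups did not overlap at either depth. Among the 41 clones of 2 cells, 39 had no such UMI, 2 had it in 1 cell and 0 in both, and 2 of the 3 cells of clone 5 had one.

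**Figure D2:**
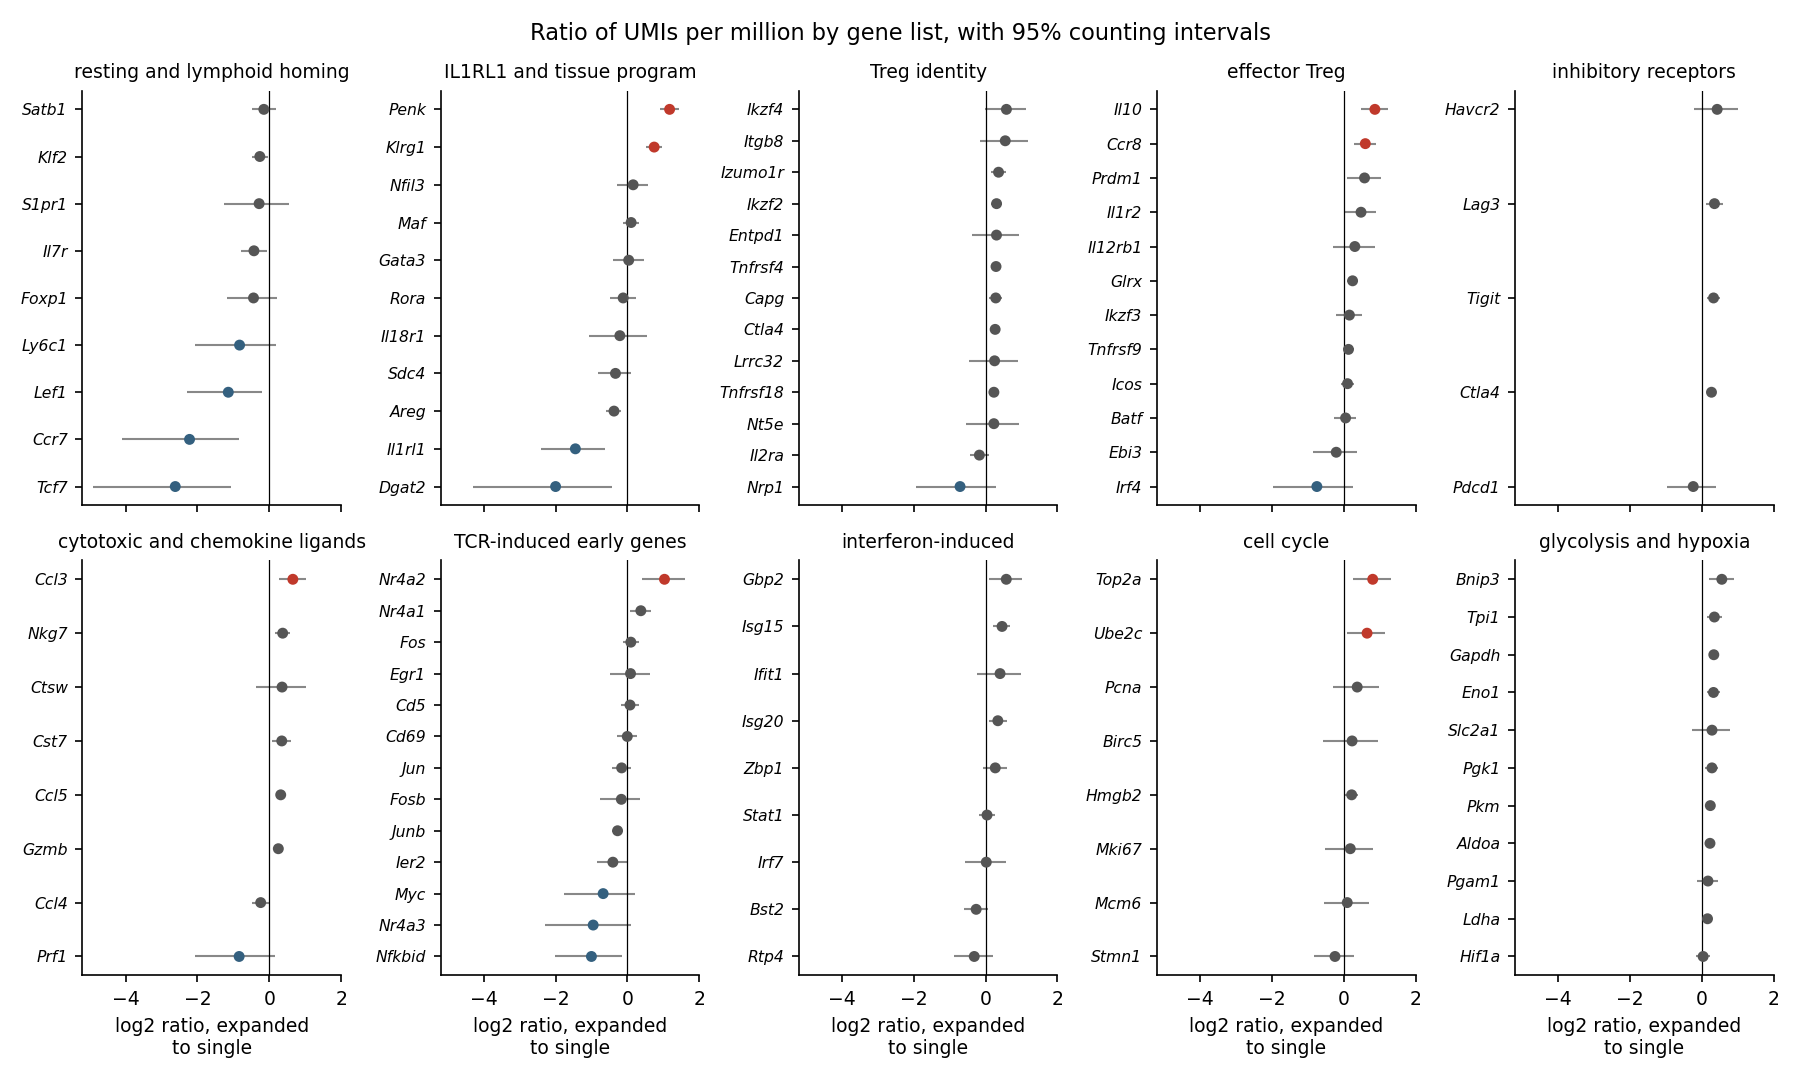
Each point is the log2 ratio of a listed gene's level in Treg cells of expanded clones to its level in single Treg cells, and each bar its 95% interval for counting error. Red marks a ratio of at least 1.5, blue a ratio of at most 0.667, and the line at 0 marks equal levels. All 9 genes of the resting list lie left of the line and all 11 of the glycolysis list right of it, although none of the latter is past 1.5-fold.

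The genes of IL-33-responsive tissue Treg cells lay on both sides. Il1rl1, which encodes the IL-33 receptor ST2, was lower in expanded clones, with 12 UMIs (35.3 CPM) against 568 (96.4 CPM), a ratio of 0.366 (0.188 to 0.645). Its UMIs lay in 7 cells of 7 clones, 4 of them in 1 cell of clone 28, and 0 of the 41 clones of 2 cells had a UMI in both cells. A UMI of Il1rl1 was found in 7.14% (2.92 to 14.2%) of the members, in 17.5% (15.7 to 19.4%) of single Treg cells and in 3.52% of CD8 T cells, which should lack the receptor for the most part and had a median of 3283 UMIs. The intervals of the 2 Treg groups did not overlap. At equal depth the shares were 4.16% (1.25 to 11.2%) in the members and 11.3% (9.79 to 13.1%) in single Treg cells, and these intervals overlapped. With clones called by the beta chain alone the ratio of Il1rl1 was 0.631. The part of the tumor of origin in this ratio, unknown for most cells, was not tested.

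Klrg1, an inhibitory receptor of effector lymphocytes, differed in the other direction. It had 167 UMIs in the members (492 CPM) against 1728 (293 CPM), a ratio of 1.68 (1.42 to 1.97). Its UMIs lay in 53 of the 98 cells and in 35 of the 46 clones, and leaving out any 1 clone gave ratios of 1.56 to 1.73. In 3 of 14 alternatives the ratio was below 1.5, at 1.39 without the upper limit on detected genes, 1.41 with clones called by the beta chain alone and 1.49 with Foxp3 at 2 UMIs or more. The 14 include a minimum of 500 UMIs per gene, which leaves a ratio unchanged by construction. A UMI was found in 54.1% (43.7 to 64.2%) of the members, in 40.3% (37.9 to 42.7%) of single Treg cells and in 14.9% of CD8 T cells. At equal depth the shares were 39.8% (29.5 to 50.8%) and 27% (24.7 to 29.3%). The intervals did not overlap at either depth, although their ends came close at equal depth.

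Areg, a ligand of the epidermal growth factor receptor through which tissue Treg cells act on other cells, was lower by sum. It had 195 UMIs in the members (574 CPM) and 4380 in single Treg cells (744 CPM), a ratio of 0.772 (0.665 to 0.891). A UMI was found in 28.6% (19.9 to 38.6%) of the members and in 30.7% (28.5 to 33.1%) of single Treg cells, so a difference in share was not detectable at this depth. Within the clones it was uneven, since 24 of the 46 had no UMI whereas 1 cell each of clones 14, 21 and 28 had 25, 23 and 23. Both cells of clone 26 had 6 UMIs of Areg, and they had 6 and 5 of Klrg1. With clones called by the beta chain alone, the ratio of Areg was 1.23, on the other side of 1.

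Penk, which encodes the opioid precursor proenkephalin, had the highest ratio of this list at 2.26 (1.87 to 2.7), from 136 UMIs against 1045, but a single cell of clone 12 held 70 of the 136. The other cell of clone 12 had 0, a cell of clone 1 had 32, and 37 clones had none. Without clone 12 the ratio was 1.13. The share of cells with a UMI was 10.2% (5 to 18%) in the members and 9.65% (8.25 to 11.2%) in single Treg cells. Dgat2, an enzyme of triglyceride synthesis, had 3 UMIs against 208, a ratio of 0.25 (0.0512 to 0.741). Of the 11 measured genes of the list, 2 were at least 1.5-fold higher and 2 that much lower. The 6 others besides Areg, which were Gata3, Rora, Maf, Nfil3, Il18r1 and Sdc4, had ratios of 0.794 to 1.12.

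**Figure D3:**
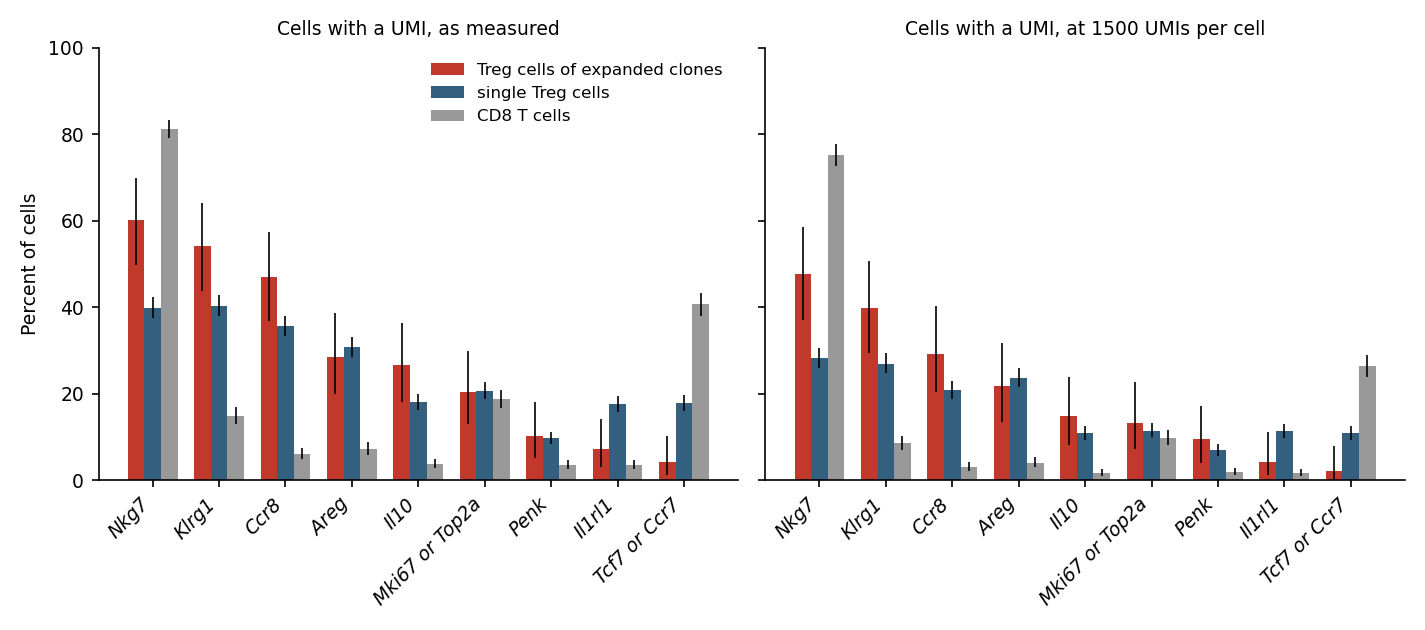
Bars give the percent of cells with at least 1 UMI of each gene or pair of genes, as measured at left and as computed for 1500 UMIs drawn from each cell at right, in 98 Treg cells of expanded clones, 1607 single Treg cells and 1307 CD8 T cells (88, 1488 and 1170 at right). Lines are 95% binomial intervals for counting error, exact at left and, at right, computed from the expected number of cells rounded to a whole number. Nkg7 and Klrg1 stand higher and Tcf7 or Ccr7 stands lower in the expanded clones on both sides.

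Among genes of effector and suppressive function, Il10 and Ccr8 were at least 1.5-fold higher. Il10, the suppressive cytokine, had 65 UMIs in 20 clones (191 CPM) against 618 (105 CPM), a ratio of 1.82 (1.39 to 2.36) that stayed between 1.62 and 1.91 without any 1 clone. It was below 1.5 in 4 of 14 alternatives, at 1.34 with Foxp3 at 2 UMIs or more, 1.38 with cells of at least 1500 UMIs, 1.39 without the upper limit on detected genes and 1.48 with clones of at least 3 cells. Both cells of clone 32 had 4 UMIs of Il10 and 5 of Klrg1. Ccr8, a chemokine receptor of tumor Treg cells, had 99 UMIs in 34 clones (291 CPM) against 1132 (192 CPM), a ratio of 1.52 (1.22 to 1.86), which was below 1.5 in 8 of 14 alternatives, down to 1.23. For both genes the 14 include the minimum of 500 UMIs per gene, which cannot change a ratio. Prdm1, the transcription factor Blimp-1, and Il1r2, a decoy receptor for IL-1, were at 1.49 (1.06 to 2.06) and 1.4 (1.01 to 1.88). Of the 12 measured genes of the effector list, 10 had ratios above 1, with a median of 1.15 beside 1.03 over all genes. An interval above 1 was found for 5 of the 12, and 1 was at least 1.5-fold lower, Irf4 at 0.595 (0.254 to 1.19).

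A UMI of Il10 was found in 26.5% (18.1 to 36.4%) of the members and 18% (16.1 to 19.95%) of single Treg cells, and of Ccr8 in 46.9% (36.8 to 57.3%) and 35.7% (33.3 to 38.1%). At equal depth the shares were 14.7% and 10.8% for Il10 and 29.1% and 20.8% for Ccr8. These shares overlapped within counting error at both depths, unlike the ratios of summed UMIs. CD8 T cells, in which both genes are rare, had 3.75% and 6.04% before thinning. The shares for Il10, Ccr8, Penk and Klrg1 were taken up after their ratios were seen.

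Genes of Treg identity had a median ratio slightly above that of all genes. Of 13 measured genes besides Foxp3, 11 had ratios above 1, and the median was 1.22 beside 1.03 over all genes. Ctla4, the inhibitory receptor that removes costimulatory ligands from other cells, was at 1.2 (1.09 to 1.32), Ikzf2 at 1.24 (1.1 to 1.38) and Tnfrsf4 at 1.22 (1.13 to 1.33). Il2ra was at 0.887 (0.735 to 1.06), and Nrp1, a surface receptor found on thymic Treg cells, was the only gene of the list past 1.5-fold, at 0.611 (0.261 to 1.22) with 8 UMIs. Without the upper limit on detected genes, with 127 members, the median of the list was 1.02.

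Ratios of inhibitory receptors were mostly above 1. Of the 5 measured genes, 4 had ratios above 1 and 1 below, with a median of 1.25 beside 1.03 over all genes. An interval above 1 was found for 3 of them and an interval below 1 for 0. Tigit and Lag3, which dampen T cell activation, were at 1.25 (1.1 to 1.42) and 1.27 (1.08 to 1.5), and Havcr2, which encodes TIM-3, at 1.34 (0.856 to 2.02). Pdcd1, which encodes PD-1, was at 0.846 (0.511 to 1.32), with 20 UMIs in the members. None of the 5 measured genes was past 1.5-fold in either direction.

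Among cytotoxic genes, Nkg7 was detected in more cells of expanded clones. Nkg7, a protein of cytotoxic granules, had 224 UMIs in 39 clones (660 CPM) against 2998 (509 CPM), a ratio of 1.3 (1.13 to 1.48). A UMI was found in 60.2% (49.8 to 70.0%) of the members and in 39.8% (37.4 to 42.3%) of single Treg cells, and at equal depth in 47.6% (37 to 58.6%) and 28.3% (26 to 30.6%). The intervals did not overlap at either depth, and CD8 T cells, which use the gene, reached 81.3%. The single Treg cell with the most Nkg7 had 76 UMIs, and the member with the most had 13. Of the 41 clones of 2 cells, 15 had a Nkg7 UMI in both cells, 20 in 1 and 6 in neither.

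Ccl5, a chemokine of effector T cells, was at 1.25 (1.13 to 1.37), Gzmb, the protease granzyme B, at 1.19 (1.09 to 1.3) and Cst7, an inhibitor of granule proteases, at 1.27 (1.06 to 1.52). Prf1, the pore-forming protein perforin, was at 0.559 (0.239 to 1.12) with 8 UMIs. Ccl3, an inflammatory chemokine, was at 1.58 (1.21 to 2.03), but clone 12 carried 23 of its 66 UMIs and without it the ratio was 1.06. Of 8 measured genes of the cytotoxic list, 1 was at least 1.5-fold higher and 1 that much lower.

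Genes that TCR signals induce had no common direction. Nr4a2, an orphan nuclear receptor of that kind, was among the 10 highest ratios at 2.04 (1.32 to 3.05), from 27 UMIs against 229, with 7 UMIs in 1 cell of clone 11 and the rest in 15 other clones. Its relatives Nr4a1 and Nr4a3 were at 1.3 (1.05 to 1.59) and 0.517 (0.205 to 1.08). Nfkbid, an IκB protein that modulates NF-κB, was at 0.499 (0.247 to 0.904), and Myc, the growth regulator, at 0.626 (0.297 to 1.17). Of the 13 measured genes, 5 had ratios above 1 and 8 below, with a median of 0.894, and 1 was past 1.5-fold upward and 3 downward. With Foxp3 at 2 UMIs or more, which left 43 members, Nr4a2 was at 0.954.

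Interferon-induced genes showed how a single cell can carry a ratio. Isg15, a ubiquitin-like protein that interferon induces, had 159 UMIs in the members, a ratio of 1.37 (1.16 to 1.62), and 1 cell of clone 10 held 56 of them while the other cell of that clone held 1. The same cell held 38 of the 71 UMIs of Ifitm3, an antiviral membrane protein whose ratio was 2.19 (1.69 to 2.81). It also held 17 of the 51 UMIs of Ifitm2 and 20 of the 30 of Rsad2. Without clone 10 the ratio of Isg15 was 0.909 and that of Ifitm3 was 1.05. The list of interferon-induced genes did not include Ifitm2 or Ifitm3. Of its 9 measured genes, 7 had ratios above 1 and 0 were past 1.5-fold either way. The share of cells with any UMI of the list was 94.9% in the members and 94.8% in single Treg cells.

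The cell of clone 10 also held markers of another cell type. It had 62 of the members' 69 UMIs of Lyz2, the lysozyme of macrophages, and 64 UMIs over 7 markers of macrophages and dendritic cells, while the next cell had 6. Lyz2 had a ratio of 8.67 (6.4 to 11.7) with that clone and 0.907 without it. Of those 7 markers, Apoe, C1qa and H2-Aa were at 0 in the members. At least 1 UMI of any of the 7 was found in 12.2% of the members and 15.2% of single Treg cells, and at least 5 in 2 members and 26 single Treg cells. Cd8a and Cd8b1 are at 0 by the rule, and 3 markers of NK cells were at 0 as well. Without the cells that had 5 such UMIs, a step chosen after the data were seen, 126 genes were at least 1.5-fold higher and 234 that much lower. Whether that droplet held 2 cells was not tested.

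In clone 41 both cells carried the signal. Its 2 cells had 9 and 17 UMIs of Ifitm2 and 16 and 20 of Klf2, from totals of 1834 and 2632 UMIs, and 37 of the 46 clones had no Ifitm2 UMI. The ratio of Ifitm2 was 2.41 (1.76 to 3.24), from 51 UMIs against 367, and 1.2 without clone 41. With only clones of paired chains, which leaves out clones 10 and 41, it was 0.388. Clone 32, with the same beta chain, had no Ifitm2 UMI in either cell, and its Klf2 UMIs were 3 and 5.

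**Figure D4:**
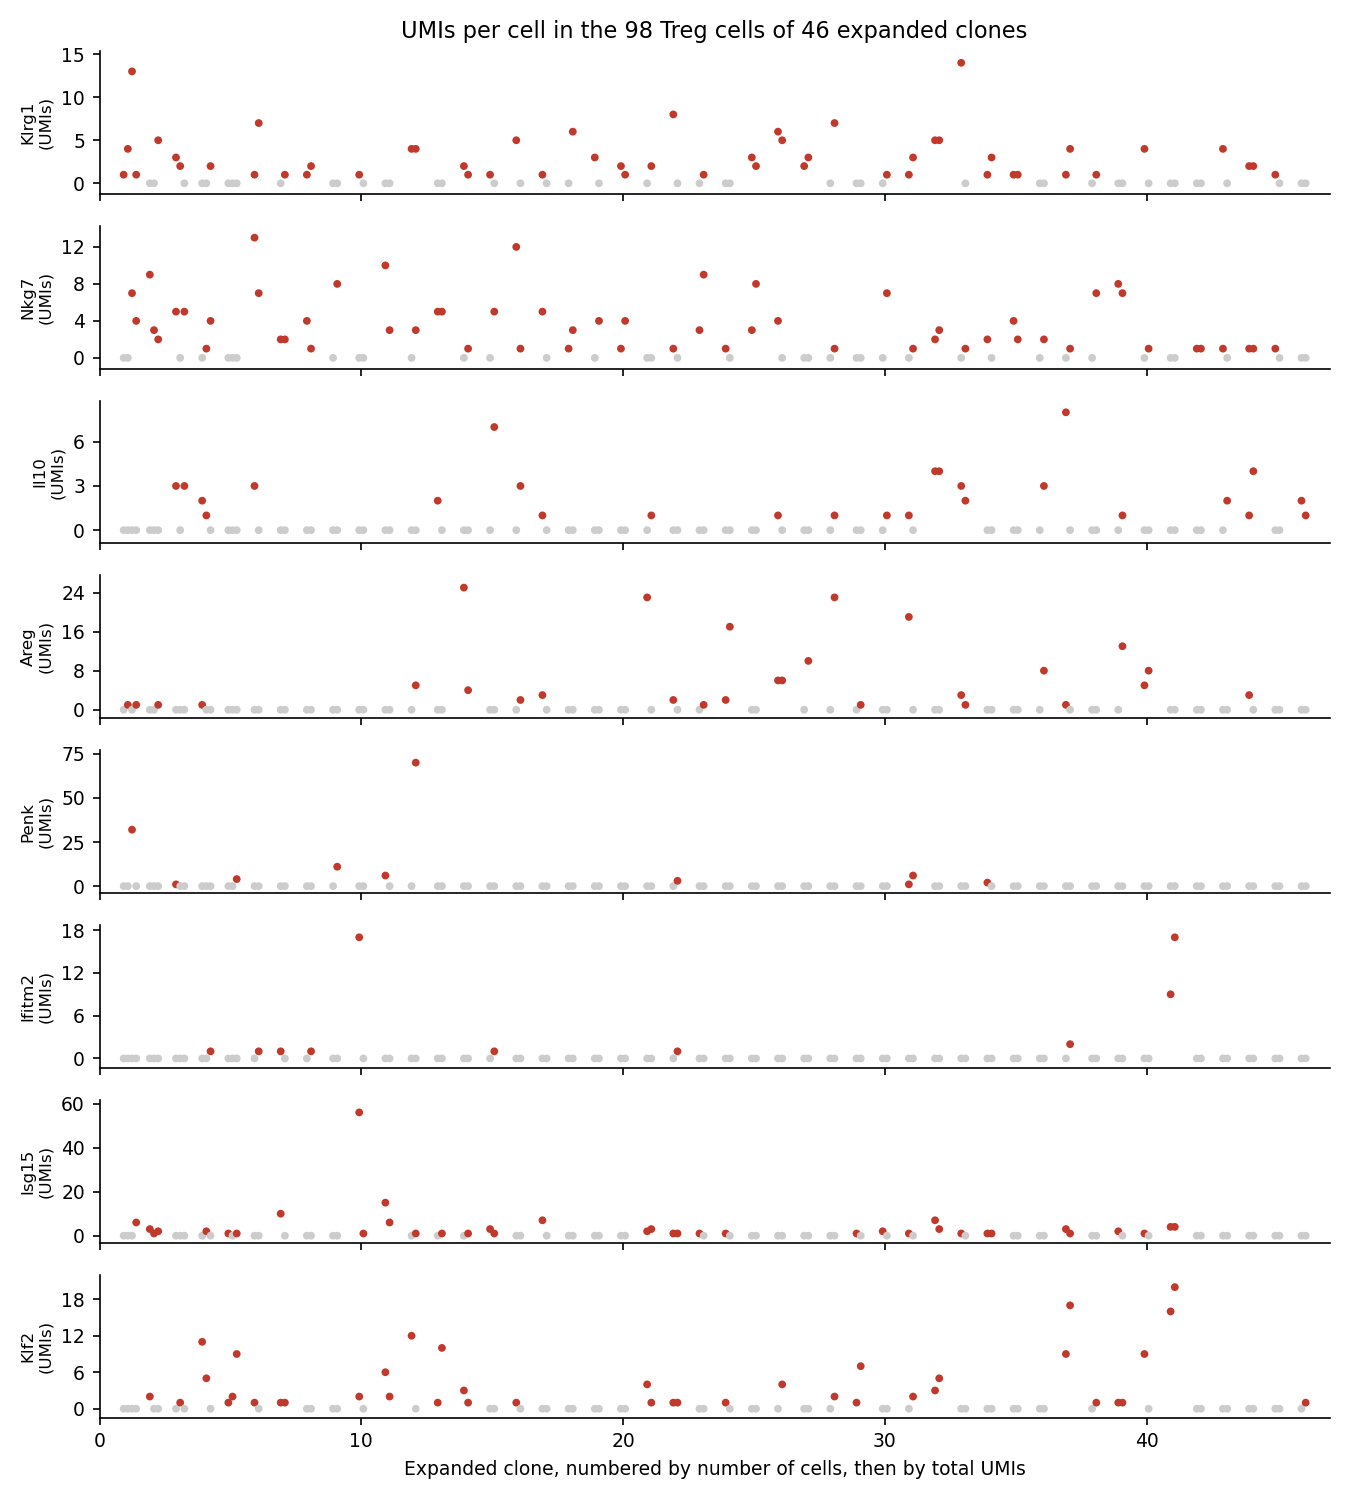
Each point is 1 of the 98 cells, placed by its clone on the horizontal axis (46 clones numbered by cells and then UMIs) and by its UMIs of the named gene on the vertical axis, with cells at 0 in grey. Klrg1 and Nkg7 UMIs are spread over 35 and 39 clones, whereas 1 cell of clone 12 carries 70 Penk UMIs, 1 cell of clone 10 carries 56 Isg15 UMIs, and both cells of clone 41 carry Ifitm2.

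Cell-cycle genes did not set expanded clones apart by share of cells. A UMI of Mki67 or Top2a, which mark dividing cells, was found in 20.4% (12.9 to 29.7%) of the members and in 20.7% (18.7 to 22.7%) of single Treg cells, and at equal depth in 13.1% and 11.4%. Top2a, a topoisomerase, had 35 UMIs in 14 clones and a ratio of 1.75 (1.2 to 2.48), and Mki67 was at 1.13 (0.693 to 1.76). Ube2c, a mitotic ubiquitin-conjugating enzyme, was at 1.57 (1.07 to 2.23), with 19 of 34 UMIs in 1 cell of clone 8, and at 0.715 without that clone. Of 8 measured genes of the list, 2 were at least 1.5-fold higher and 0 that much lower. In 4 clones of 2 cells both cells had a Mki67 or Top2a UMI, in 9 only 1 did and in 28 neither.

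Glycolytic genes had ratios slightly above 1. This held for all 11 measured genes of the list, and 0 were past 1.5-fold. An interval above 1 was found for 8 of them, beside 6.09% of all genes tested. The 11 genes held 3494 UMIs in the members, whereas the tested genes had a median of 25 each. More UMIs narrow an interval, so these shares are not alike in depth. Gapdh, a glycolytic enzyme, had 807 UMIs in all 46 clones (2376 CPM) against 11125 (1889 CPM), a ratio of 1.26 (1.17 to 1.35), and Eno1, the enzyme enolase, was at 1.25 (1.1 to 1.42). Bnip3, a mitochondrial protein that hypoxia induces, was highest at 1.47 (1.14 to 1.86). The list's median was 1.21, and 0.983 over the 16 cells of clones of at least 3 cells, where 4 of the 11 ratios were above 1 and 7 below.

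Several chemokine receptors besides Ccr7 and Ccr8 had ratios near 1. Ccr2 was at 1.09 (0.942 to 1.25), Cxcr4 at 0.959 (0.62 to 1.42) and Cxcr6 at 1.08 (0.78 to 1.47), and Cxcr3, a receptor of type 1 responses, was at 1.3 (1 to 1.66). Of the NF-κB feedback genes, Birc3, an inhibitor of cell death, was at 1.57 (1.07 to 2.23), and the other 8 lay between 0.897 for Rel and 1.12 for Bcl3. The helper lineage factors Gata3, Id2 and Tbx21 lay between 0.908 and 1.02. Cd40lg, the costimulatory ligand of helper cells, was at 0.471 (0.171 to 1.04) with 6 UMIs.

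Beyond the lists, the genes named by their ratio were mostly low in count. The 10 highest whose ratio stayed above 1 without any 1 clone were Ifitm2, Penk, Ifitm3, Csf1, Nr4a2, Fam204a, Fam172a, Fam133b, Gng12 and Terf1, at 2.41 down to 1.88. Csf1, the growth factor of macrophages, had 35 UMIs in 13 clones (103 CPM) against 282 (47.9 CPM), a ratio of 2.15 (1.47 to 3.06), and both cells of clone 44 had it, with 5 and 3 UMIs. Over the clones of at least 3 cells its ratio was 0.718. Those that stayed below 1 were Tnfrsf25, Tcf7, Med13, Ccr7, Nhp2, Dgat2, Lamp1, Gm20400, Vps4a and Dcaf7, at 0.159 to 0.364. Tnfrsf25, the death receptor DR3 that Treg cells also use for costimulation, had 2 UMIs in 2 clones against 218, a ratio of 0.159 (0.0191 to 0.582). Without the upper limit on detected genes the ratio of Nhp2 was 1.25.

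Over many genes, cells of 1 clone were little more alike than cells of different clones. The intraclass correlation, the share of a gene's variance over cells that lies between clones, was computed on log-normalized values for 247 genes with at least 200 UMIs in the members. Its median was 0.0672, with a range of -0.299 to 0.475, and with only clones of paired chains it was 0.00829. TCR V segment genes, which cells of a clone share by definition, gave 0.790 to 0.937 for the 5 with at least 20 UMIs. Over 1359 genes, the correlation between 2 cells had a median of 0.525 for the 59 pairs within clones and 0.503 for the 4694 pairs between clones. Of the 59 pairs, 35 (59.3%) exceeded the median between clones. By presence or absence of a UMI, 61.0% of pairs within clones were alike for Klrg1, against 49.7% of pairs between clones. For Il10 the shares were 69.5 and 60.5%, and for Mki67 or Top2a 76.3 and 67.1%. Penk (79.7 and 81.5%) and Ccr8 (47.5 and 49.7%) went the other way. How far counting error lowers the intraclass correlation was not tested.

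Among the genes with the highest intraclass correlation were Junb, Sdf4, Rpl28, Rps3a1, Hif1a, Rpl26, Rpl3, Cd3e and mt-Co3, at 0.475 to 0.287. Junb, a subunit of the AP-1 transcription factor, was at 0.475. Clone 4 had 8, 9 and 11 Junb UMIs in its 3 cells, and clones 8, 37, 44 and 45 had 0 in both of their cells. Sdf4, a calcium-binding protein of the Golgi apparatus, was at 0.412, and Hif1a, the hypoxia-induced transcription factor, at 0.317. With cells of at least 1500 UMIs alone, Junb, Sdf4 and Hif1a were at 0.388, 0.441 and 0.322. Of the ribosomal protein genes, Rpl28 was then at 0.315, Rps3a1 at 0.14 (0.368 with all cells), Rpl26 at 0.144 (0.317) and Rpl3 at 0.0496 (0.306). Cd3e, a subunit of the TCR complex, was at 0.104 (0.302), and mt-Co3, a mitochondrial gene, at 0.494 (0.287). Cells of 1 clone may also share their mouse, and the 2 cannot be told apart here.

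**Figure D5:**
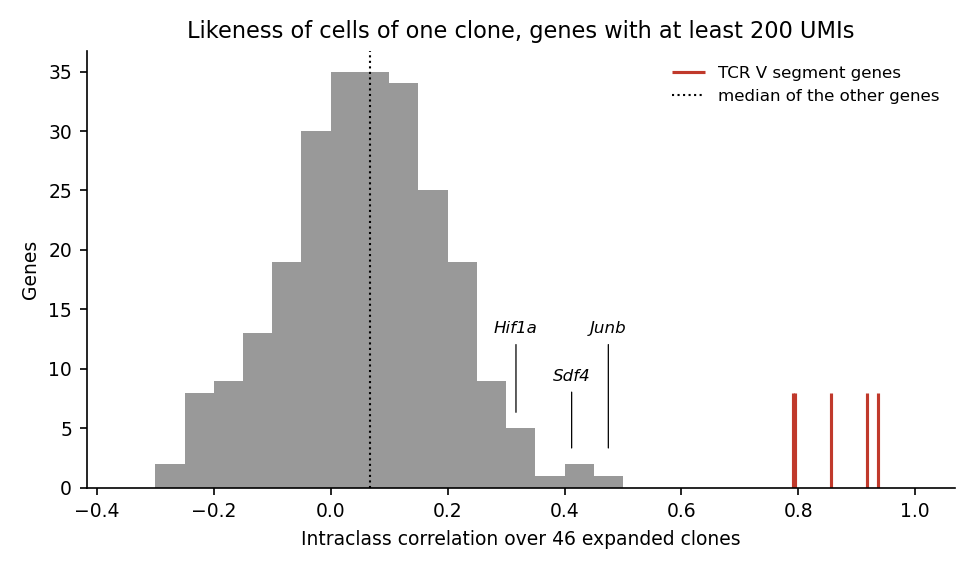
The histogram counts 247 genes with at least 200 UMIs in the 98 cells by their intraclass correlation over the 46 expanded clones, where 0 means that cells of a clone are no more alike than cells of different clones. The red lines are 5 TCR V segment genes, at 0.790 to 0.937, and the dotted line is the median of the other genes, 0.0672. Junb, at 0.475, is the highest of the other genes.

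Some expanded clones also held cells without a Foxp3 UMI. Such cells can be conventional CD4 T cells or Treg cells whose Foxp3 RNA was not captured, and which they were was not tested. Besides the 98 members, their clonotypes held 5 cells with no UMI of Foxp3, Cd8a or Cd8b1 and 0 cells with a CD8 UMI. The 5 cells belonged to 4 of the 46 clones (8.70%, interval 2.42 to 20.8%), against 31 of 1607 single Treg clonotypes (1.93%, 1.31 to 2.73%). A clonotype with more cells has more chances to hold such a cell, and that part was not tested. Treg identity genes other than Foxp3 summed to 4874 CPM in these 5 cells (80 UMIs, 3865 to 6066). Members were at 7673, single Treg cells at 6426, and the 2501 cells without Foxp3 or CD8 UMIs whose clonotype had no Treg cell were at 2185. The 36 such cells of single Treg clonotypes were at 4948, so both kinds lay between Treg cells and other cells without Foxp3.

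Hashtags placed few of the members in a tumor. Of the 98 cells, 97 were in the hashtag library and 13 (13.3%) had a tag UMI, 12 of a B16 tag and 1 of a B16–IL-33 tag. In single Treg cells 170 had tags of B16 alone, 37 of B16–IL-33 alone and 2 of both. Members were 6.59% of the 182 Treg cells tagged as B16 (3.45 to 11.2%) and 2.63% of the 38 tagged as B16–IL-33 (0.0666 to 13.8%), a difference of -3.96 percentage points (B16–IL-33 minus B16, interval -9.26 to 7.65), so no difference was detectable at this depth. The tag was a single UMI in 194 of these 220 cells and in 11 of the 13 members, and how often such a UMI comes from free tag was not tested. With 2 or more tag UMIs, members were 2 of 25 cells tagged as B16 and 0 of 1 tagged as B16–IL-33, a difference of -8 percentage points (interval -26.03 to 89.8). All 12 B16 members had the second of the 2 B16 tags, and 0 of 59 Treg cells with a UMI of the first B16 tag were members (interval 0 to 6.06%). In the 3 clones with 2 tagged cells, clones 1, 3 and 33, both cells had the same tag. It was the second B16 tag, which 12 of the 13 tagged members had, so this match cannot tell cells of 1 clone from other members.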

How the data were processed

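TCR-β+ T cells pooled from B16 and B16–IL-33 tumors were profiled by 10x 5′ single-cell sequencing with hashtag and TCR libraries. The authors deposited UMI counts per gene and barcode on a combined human and mouse reference, hashtag counts, and a table of TCR contigs with UMI counts per contig. The Cell Ranger version was 3.1.0 per the file headers and 6.1.1 per the submitters' processing notes, and the tool that counted hashtags was not given in the sources used here. Such upstream choices set which barcodes and contigs were kept.

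Mouse genes alone were used. Cells with 200 to 2500 detected genes and under 5% mitochondrial UMIs were kept, with no doublet caller. UMIs were summed over members and over single Treg cells, scaled to CPM and divided, with exact intervals at the 95% confidence level for counting error (SciPy 1.17.1, NumPy 2.4.6, pandas 2.3.3, Python 3.11.15, matplotlib 3.10.9). Ratios of at least 1.5 or its inverse were counted over genes with 200 UMIs. With 1 library no test between cells was run. Shares at equal depth were computed for 1500 UMIs per cell, leaving out 10 members and 119 single Treg cells with fewer. Their intervals used the expected number of cells rounded to a whole number, not an observed count. Intraclass correlations used values scaled to 10000 UMIs and logged. The intervals and the thinning were tested on simulated data.

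Besides the list genes, the 10 highest and the 10 lowest ratios that stayed on their side of 1 without any 1 clone were named; some genes are not reported here. The members and lists were chosen with earlier results of these data known. Alternatives varied the cell limits, the Treg and clone rules, the weighting of clones and cells, and the UMI minimum. A step without cells rich in macrophage markers was added after the data were seen.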

Additional observations from a re-analysis of the deposited data

How the results depend on the processing

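No paired analysis was possible because every cell comes from 1 pool and the comparison has no test. Of the 50 values that answer a comparison, 41 stayed under the alternatives and 9 moved. Counts of genes had to stay within 1.5 times of the main count, and shares and differences within the main interval. The median intraclass correlation had to stay within the standard deviation over genes. By that wide rule the value with paired clones alone, 0.00829 beside 0.0672, was counted as staying. Of the other values, which were ratios of single genes, list medians and intraclass correlations, 1876 stayed within their interval or spread and 215 did not. A ratio of a gene lay on the other side of 1 from its main value in 192 of 1836 values, and a list median in 19 of 205. The gene ratios in these tallies include those under the minimum of 500 UMIs, where the ratio of a tested gene cannot change by construction. Of the 38 named genes past 1.5-fold, 8 were past it in every alternative that tested them (Ccr7, Dgat2, Il1rl1, Penk, Tcf7, Terf1, Tnfrsf25 and Vps4a). These alternatives did not leave out each clone in turn, and without clone 12 the ratio of Penk was 1.13, short of 1.5-fold. The share of Treg cells in expanded clones was 4.05% with Foxp3 at 2 UMIs or more, 10.4% with clones called by the beta chain alone and 0.938% with clones of at least 3 cells. Genes at least 1.5-fold higher and lower numbered 48 and 79 with clones by the beta chain (151 members), 629 and 833 with clones of at least 3 cells (16 members), and 17 and 31 with a minimum of 500 UMIs, which by construction tests fewer genes. Among genes past 1.5-fold, the ratios that came to lie on the other side of 1 were as follows, and the cause was not tested. Without the upper limit on detected genes Lyz2 was at 0.938 and Nhp2 at 1.25, and with Foxp3 at 2 UMIs or more Ly6c1 was at 1.2 and Nr4a2 at 0.954. With clones by the beta chain Ifitm3 was at 0.744, Lyz2 at 0.58 and Nr4a3 at 1.25. With paired clones alone Ifitm2 was at 0.388 and Ifitm3 at 0.826. With clones of at least 3 cells Ccl3 was at 0.977, Cd40lg at 1.38, Csf1 at 0.718, Fam133b at 0.387, Fam172a at 0.563, Gng12 at 0.965, Ifitm2 at 0.276, Ifitm3 at 0, Lyz2 at 0, Top2a at 0.584 and Ube2c at 0.808. Without cells with a Mki67 or Top2a UMI Lyz2 was at 0.862 and Ube2c at 0.801. Klrg1, Il10, Ccr8, Penk and Nkg7 were above 1 and Il1rl1, Tcf7, Ccr7, Lef1 and Dgat2 below 1 in every setting that tested them.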
